A study of Gallus gallus with 6 samples.

Results

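Laminins and nidogens are secreted glycoproteins of the basement membrane, the thin sheet of matrix that underlies epithelia and surrounds muscle, fat and vessels. A laminin is a cross-shaped trimer of 1 alpha, 1 beta and 1 gamma chain, and the alpha chain carries the domains that bind integrins and dystroglycan on the cell surface. Nidogens bind the laminin gamma1 chain and type IV collagen, and so bridge the laminin sheet to the collagen sheet. The genes described here are 9 listed members, LAMA1, LAMA2, LAMA3, LAMA4, LAMA5, LAMB1, LAMC1, NID1 and NID2, each taken from the table by its exact symbol and kept where the symbol had exactly 1 row. Of the 9 listed members 7 met that rule, out of 23873 genes in the table. LAMA2 and NID2 matched 0 rows by symbol and were not analysed here.

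The libraries were made from polyA RNA of primordial germ cells (PGCs), from which eggs and sperm descend, grown in culture from blood drawn from chicken embryos of stage 16 in the Hamburger and Hamilton series. The first group was 3 libraries of undifferentiated PGCs, which grow in suspension (the PGC libraries), and the second was 3 libraries of somatic differentiated PGCs (the somatic libraries), cells that had attached to the dish and were grown on for some weeks after those in suspension had been drawn off. Where 3 values are given for a group they are those of libraries 1, 2 and 3 in that order. The labels describe a single medium for both groups, with 0.2 μM of the ROCK inhibitor H1152, 0.2 μM of the myosin inhibitor blebbistatin, human FGF2 at 10 ng/mL, heparin and chicken serum at 1%. The labels do not say whether the 3 libraries of a group came from separate embryos, so p-values measure the spread between these libraries, which may in part be technical.

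Levels are given in TPM, a unit of transcript abundance that is corrected for length and scaled to the same total in each library, so genes can be set against each other. TPM keeps no record of read numbers, so the depth behind each value is unknown. Between 12342 and 12993 genes reached 1 TPM in a library. The germ cell genes used to check the labels, 14 matched genes such as DDX4 and DAZL, summed to 2996 to 3066 TPM in undifferentiated and 681 to 1140 TPM in somatic libraries, so germ cell RNA was lower but present in the second group. By the rule for calls given below, 10 of the 14 were lower and 0 higher, beside 7.77% and 13.2% of all genes tested. SMC1B, not called, went the other way, with means of 3.32 TPM in undifferentiated and 5.60 TPM in somatic libraries. In bulk RNA, fewer cells of a type and less RNA per cell cannot be told apart. PGC library 2 stood apart from the other libraries of its group: its Pearson correlation of log2(TPM + 1) across genes was 0.962 with library 1 and 0.968 with library 3, against 0.986 between libraries 1 and 3. It was the lowest of the 3 PGC libraries for 63.3% of the 12996 genes tested, and for 6 of the 7 laminin and nidogen genes, all but LAMB1.

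Of the 7 measured genes, 3 rose in somatic differentiated cells, LAMA3, LAMA4 and LAMC1, and 0 fell. A gene was called where limma on log2(TPM + 1) gave an adjusted p under 0.05 (Benjamini-Hochberg, over all genes in the test) and the log2 change was at least 1 either way. By the same rule 13.2% of all genes tested were called higher and 7.77% lower. The other measured members, LAMA1, LAMA5, LAMB1 and NID1, did not pass. The 7 genes summed to 577, 422 and 532 TPM in the PGC libraries and to 937, 918 and 618 TPM in the somatic libraries.

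LAMC1 encodes gamma1, the gamma chain of most laminins and the chain that nidogen binds. Its level was 137, 60.3 and 113 TPM in the PGC libraries and 334, 366 and 219 TPM in the somatic libraries. Every somatic differentiated value lay above every undifferentiated value, as was true of 25.0% of all genes tested. The mean rose from 103 ± 39.3 to 306 ± 77.0 TPM (SD, n = 3), 2.96-fold, with a log2 change of 1.60 (95% interval 0.82 to 2.38, limma adjusted p 0.0095). Without PGC library 2, the lowest library, the log2 change was 1.26 (limma adjusted p 0.00971), in a fit that called 10.9% of all genes higher. LAMC1 (ENSGALG00000004620) lies on chromosome 8 from 7848917 to 7898075 on the plus strand of GRCg6a, the build named in the submitters' processing notes.

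LAMB1 encodes beta1, the beta chain that joins gamma1 in the most widespread laminins. It was the most abundant of the 7 genes in 5 of the 6 libraries, and LAMC1 exceeded it in somatic library 2. Its level was 281, 288 and 303 TPM in the PGC libraries, the narrowest spread among the members relative to its level, and 391, 312 and 268 TPM in the somatic libraries. Those ranges overlapped, because somatic library 3 lay below all PGC libraries. The mean was 291 ± 11.0 and 324 ± 62.5 TPM (SD, n = 3), and the log2 change of 0.14 (95% interval -0.22 to 0.49) did not pass the test (limma adjusted p 0.491).

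The LAMB1 value carries a limit of the annotation. The table places LAMB1 (ENSGALG00000007905) on chromosome 1 from 15009296 to 15165846 on the minus strand, a span of 156551 bases that contains or overlaps LAMB4 and LRRK2 on the same strand and ERGIC2 on the other. LAMB4, another beta chain, was at 0.470 to 0.888 TPM over the 6 libraries and LRRK2 at 2.00 to 4.74 TPM. ERGIC2, a gene of the secretory pathway, was at 165 to 220 TPM. How reads in the shared stretch were divided was not tested, and in the RefSeq annotation of the later build GRCg7b LAMB1 and LAMB4 do not overlap. Of the other members, LAMA4 overlapped 2 noncoding genes and LAMC1 overlapped 1 microRNA gene, all listed at or below 0.0492 TPM.

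LAMA1 and LAMA5 encode the alpha chains known from mouse as those of the early embryo and of many later basement membranes. Among the 4 measured alpha chains they had the highest levels in all 6 libraries, and LAMA2 was not measured. LAMA1 (ENSGALG00000014615, chromosome 2, 99519352 to 99618009, plus strand) was at 27.5, 11.5 and 26.8 TPM in the PGC libraries and at 23.1, 28.3 and 22.3 TPM in the somatic libraries. The groups overlapped, and PGC library 2 was the single low value. The log2 change was 0.25 (95% interval -0.55 to 1.04, limma adjusted p 0.587), and -0.15 without PGC library 2.

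LAMA5 (ENSGALG00000005321, chromosome 20, 7832322 to 7910579, minus strand) had the same arrangement. Its level was 47.0, 14.7 and 37.8 TPM in the PGC libraries and 31.4, 37.5 and 43.7 TPM in the somatic libraries. PGC library 2 was again low, and the other libraries of both groups shared 1 range. The log2 change was 0.31 (95% interval -0.65 to 1.27, limma adjusted p 0.569), and -0.18 without PGC library 2. The direction of LAMA1 and LAMA5 therefore rested on that library, and intervals that wide do not show that the levels were equal.

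LAMA3 and LAMA4 were at low levels in undifferentiated cells and rose in somatic differentiated cells. LAMA3 encodes alpha3, the chain of the laminins that anchor stratified epithelia such as skin in mammals. It was at 1.56, 0.974 and 1.48 TPM in the PGC libraries and at 15.5, 19.9 and 7.99 TPM in the somatic libraries. The groups were far apart, with the lowest somatic differentiated value in library 3. The mean rose from 1.34 ± 0.317 to 14.5 ± 6.005 TPM (SD, n = 3), 10.8-fold, with a log2 change of 2.65 (95% interval 1.85 to 3.45, limma adjusted p 0.00206). LAMA3 (ENSGALG00000015056) lies on chromosome 2 from 103119354 to 103231680 on the plus strand.

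LAMA4 encodes alpha4, a short alpha chain known in mammals from vessel walls, muscle, nerve and mesenchyme. It was at 0.630, 0.472 and 0.505 TPM in the PGC libraries and at 14.0, 3.84 and 7.38 TPM in the somatic libraries. All somatic differentiated values were higher, and among them library 1 was the highest and library 2 the lowest, a different order from that of LAMA3. The mean rose from 0.535 ± 0.0833 to 8.39 ± 5.13 TPM (SD, n = 3), 15.7-fold, with a log2 change of 2.46 (95% interval 1.51 to 3.42, limma adjusted p 0.00438). LAMA4 met the minimum for testing, a mean of 1 TPM over the 6 libraries, only through its somatic values. A gene as low as this in both groups would not have been tested. Adding 1 to each TPM before the log understates the change of genes this low, and with 0.1 in its place the log2 change was 3.27 for LAMA3 and 3.56 for LAMA4. With 5 the values were 1.57 and 1.20, and both genes were still called, as were 9.16% of all genes in the higher direction (14.1% with 0.1). LAMA4 (ENSGALG00000015001) lies on chromosome 3 from 65714396 to 65810805 on the plus strand.

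NID1 encodes nidogen-1, the linker between gamma1 and type IV collagen. It was at 82.6, 45.7 and 49.7 TPM in the PGC libraries and at 128, 150 and 49.4 TPM in the somatic libraries. Somatic libraries 1 and 2 lay above all PGC libraries, while library 3 lay within their range. The mean was 59.3 ± 20.2 and 109 ± 52.9 TPM (SD, n = 3), and the log2 change of 0.77 (95% interval -0.26 to 1.80) did not pass (limma adjusted p 0.197). Without somatic library 3 it was 1.26 and was called (limma adjusted p 0.0223), in a fit that called 12.9% of all genes higher, so that library decided the call. Over all 16 alternatives the adjusted p ranged from 0.0223 to 0.46. NID1 (ENSGALG00000042079) lies on chromosome 3 from 37941890 to 37973181 on the plus strand.

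**Figure D1:**
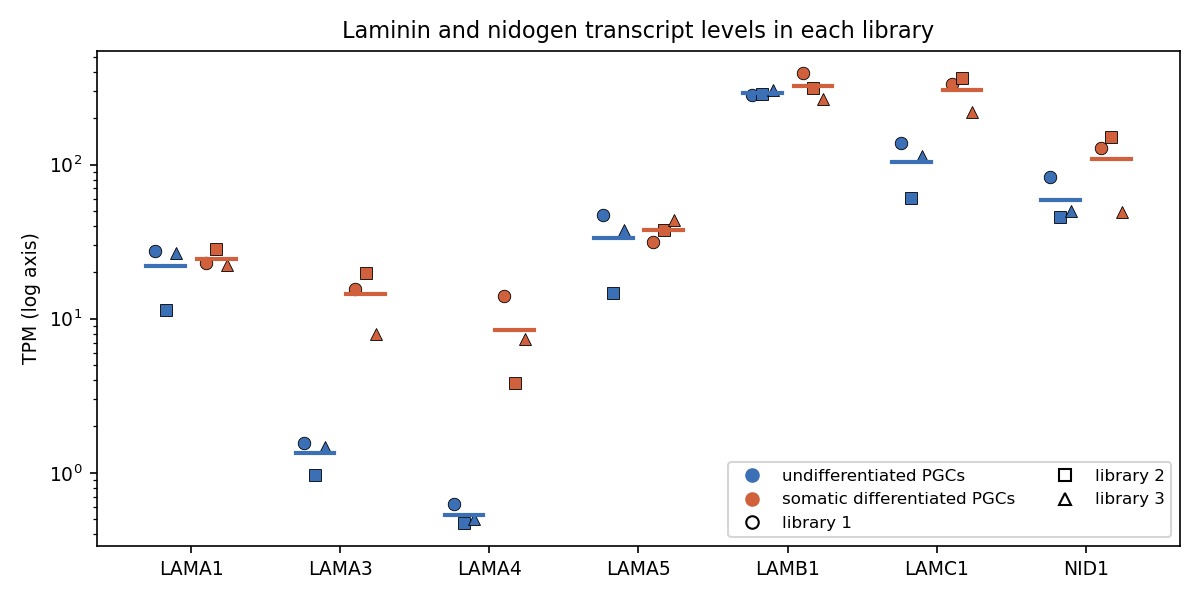
Level in TPM (log axis) of the 7 measured laminin and nidogen genes, with 1 symbol per library (circle, square and triangle for libraries 1, 2 and 3) and a line at the mean of each group of 3. LAMA3, LAMA4 and LAMC1 do not overlap between groups, and the square of PGC library 2 is low for LAMA1, LAMA5 and LAMC1.

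The order of the levels changed little between the groups. In undifferentiated cells it ran from LAMB1 through LAMC1, NID1, LAMA5, LAMA1 and LAMA3 to LAMA4. LAMC1 and NID1, NID1 and LAMA5, and LAMA5 and LAMA1 were neighbours whose ranges overlapped there. In somatic differentiated cells the order of the means was the same, with overlapping ranges for LAMB1 and LAMC1 and for LAMA3 and LAMA4. By rank among all 23873 genes, LAMB1 stood between 328 and 562 in every library. LAMC1 stood at 1436, 2896 and 1772 in the PGC libraries and at 415, 370 and 726 in the somatic libraries. LAMA4 stood at 13603, 13314 and 13618 in the former and at 8272, 10894 and 9453 in the latter.

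**Figure D2:**
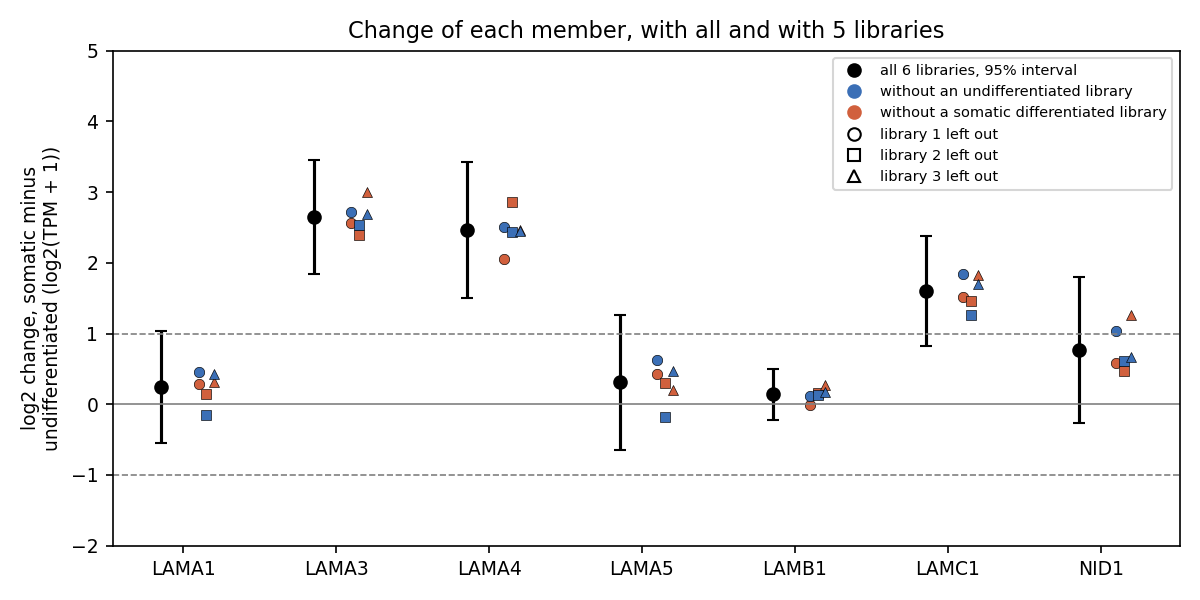
Change of each gene on the log2(TPM + 1) scale, somatic differentiated minus undifferentiated, with all 6 libraries (black, with the 95% interval from limma) and with each library left out in turn (blue for undifferentiated, orange for somatic differentiated, symbol by library number). LAMA3, LAMA4 and LAMC1 stay above the dashed line at 1 in every case, and LAMA1 and LAMA5 drop below 0 without PGC library 2, as does LAMB1, to -0.01, without somatic library 1.

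The makeup of the alpha chains was compared within each library, where the scaling of the library cancels. LAMA1 and LAMA5 together held nearly all alpha chain TPM in undifferentiated cells, and LAMA3 and LAMA4 held a larger part in somatic differentiated cells. LAMA3 held 2.03%, 3.52% and 2.22% of the sum of the 4 measured alpha chains in the PGC libraries and 18.5%, 22.2% and 9.82% in the somatic libraries. LAMA4 held 0.821%, 1.71% and 0.759% in the former and 16.6%, 4.29% and 9.07% in the latter. For both chains all somatic libraries lay above all undifferentiated ones, and the mean share was higher by 14.2 percentage points for LAMA3 and by 8.90 for LAMA4.

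The remaining shares were lower by the same arithmetic. LAMA1 held 39.2% ± 2.93 in undifferentiated and 28.9% ± 2.41 in somatic libraries (SD, n = 3), with no overlap between groups. LAMA5 held 57.1% ± 3.99 and 44.3% ± 8.39, and its share in somatic library 3, 53.7%, lay within the undifferentiated range of 53.3% to 61.3%. A two-sided exact permutation test gave p = 0.1 for LAMA1, LAMA3 and LAMA4, the smallest that 3 libraries against 3 allow, and p = 0.2 for LAMA5. Adjusted over the 4 shares these were 0.133 and 0.2, so no share could pass a threshold of 0.05 in this design. The summed level of the 4 alpha chains was 76.7, 27.6 and 66.5 TPM in the PGC libraries, and 83.9, 89.6 and 81.4 TPM in the somatic libraries. PGC library 2 thus had a low sum, and its shares of LAMA1, LAMA3 and LAMA4 were the highest of its group and that of LAMA5 the lowest.

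**Figure D3:**
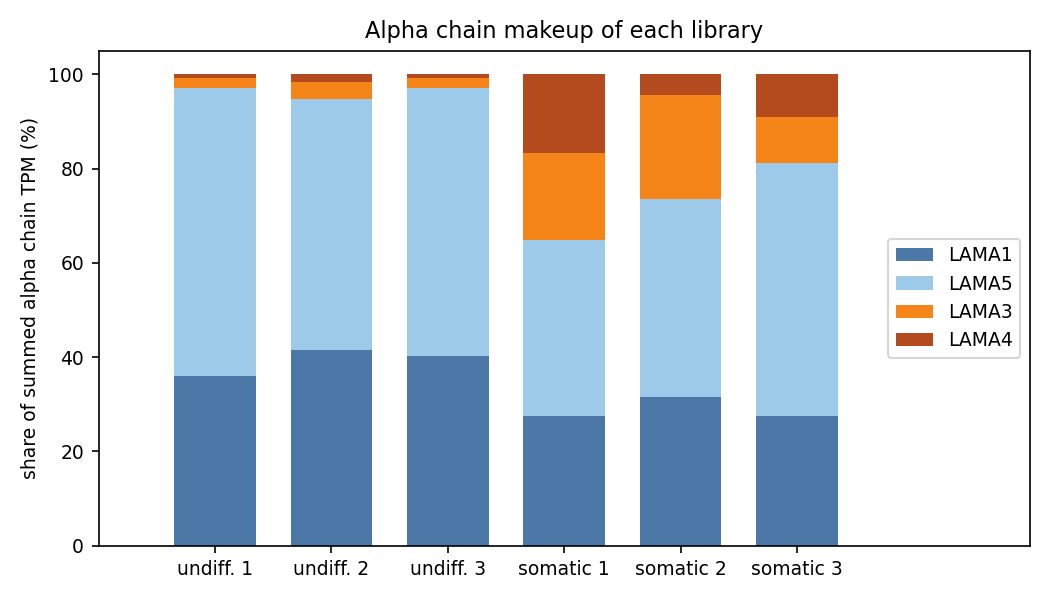
Share of the summed TPM of LAMA1, LAMA3, LAMA4 and LAMA5 held by each chain, in percent, with 1 bar per library (undiff., undifferentiated PGCs; somatic, somatic differentiated PGCs). LAMA3 and LAMA4 together take the upper part of the bars, which is small in the 3 PGC libraries and larger in the 3 somatic differentiated ones, most of all in libraries 1 and 2.

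The other chains were then set against gamma1, since nearly all laminins that hold beta1 also hold it. LAMB1 exceeded LAMC1 by 2.05, 4.78 and 2.68 times in the PGC libraries, and the ratio was 1.17, 0.854 and 1.22 in the somatic libraries. Beta1 and gamma1 transcripts were thus unequal in the first group and close to equal in the second. The mean log2 ratio was 1.57 ± 0.625 and 0.10 ± 0.283 (SD, n = 3), a difference of -1.47 with no overlap, which also held without PGC library 2, the library with the highest ratio (-1.13). The overlap of LAMB1 with other genes applies to this ratio too, and its part in it was not tested.

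The sum of the 4 alpha chains stood at 0.56, 0.459 and 0.588 of the LAMC1 level in the PGC libraries, and at 0.251, 0.245 and 0.371 in the somatic libraries. The ratio of NID1 to LAMC1 was 0.602, 0.759 and 0.439 in the PGC libraries and 0.384, 0.411 and 0.226 in the somatic libraries. Neither ratio overlapped between groups, and both were lower in somatic differentiated cells, with differences of the mean log2 ratio of -0.91 and -0.83. Thus LAMC1 was higher relative to beta1, to the alpha sum and to nidogen-1 in every somatic library. These 3 ratios share LAMC1 and are not independent. The two-sided exact permutation p was 0.1 for each, the smallest possible, as it was after adjustment over the 3 ratios and the beta chain share given below.

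**Figure D4:**
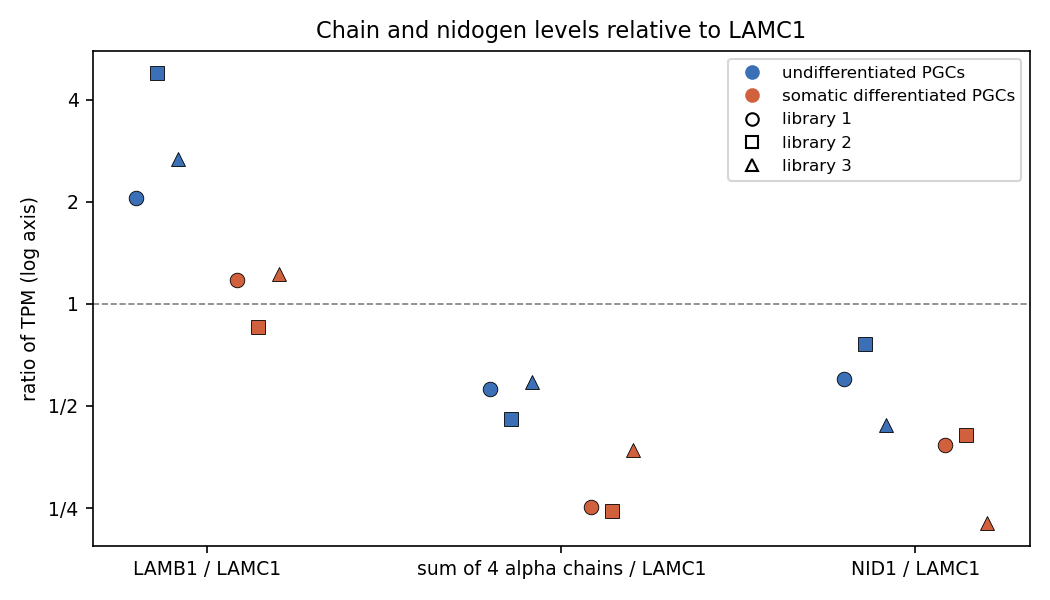
Ratio of TPM (log axis) of LAMB1, of the sum of the 4 measured alpha chains and of NID1 to LAMC1, with 1 symbol per library. For each ratio the 3 somatic libraries lie below the 3 undifferentiated ones, and the dashed line marks equal levels, close to which LAMB1 and LAMC1 lie in somatic differentiated cells.

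The low values of PGC library 2 were also seen in other genes, more so in genes with long spans in the genome, a description added after the data were seen. In TPM with nothing added, the ratio of library 2 to the mean of libraries 1 and 3 was 0.422 for LAMA1, 0.348 for LAMA5, 0.482 for LAMC1, 0.642 for LAMA3 and 0.692 for NID1. It was 0.832 for LAMA4 and 0.987 for LAMB1. On another scale, that of TPM + 1, the median ratio was 0.831 over all genes tested and 0.696 over the 7 members. Adding 1 brings the ratio of genes as low as LAMA3 and LAMA4 closer to 1, so their values above do not compare directly with these medians. It was 0.991 in the fifth of genes with the shortest spans, up to 4531 bases, and 0.639 in the fifth with the longest, from 43438 bases, where library 2 was the lowest of its group for 84.3% of genes. The 7 members span 31292 to 156551 bases. The longest was LAMB1, the member least lowered in library 2, and its span carries the limit of the annotation given above. The part of gene span or of RNA quality in these values was not tested.

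For each member the 2 genes with the most similar profile were found among all other tested genes with a symbol of their own, as the root mean square difference between profiles of log2(TPM + 1) centred on their mean over the 6 libraries. CLEC16A and VPS13C lay nearest to LAMA1, at 0.0282 and 0.0471, and ATP2B4 and NRIP1 nearest to LAMA5, at 0.0513 and 0.0757. All 4 share the low PGC library 2, as with CLEC16A at 9.36, 3.45 and 9.40 TPM in undifferentiated and 7.50, 9.48 and 7.58 TPM in the somatic libraries. RELL1 and CHST12 lay nearest to LAMA3, at 0.101 and 0.116, with log2 changes of 2.67 and 2.65. Genes picked in this way share the pattern of their member by construction, so their changes are not a separate result. KCNMB1, a subunit of a calcium-activated potassium channel, and PHLDA2 lay nearest to LAMA4, at 0.169 and 0.181. PLCB1, a phospholipase C, and PCDH18, a protocadherin, lay nearest to LAMC1, at 0.1 and 0.102. LAMB1 was closest to ANKRD40 and CLPX, at 0.0539 and 0.0578, and NID1 to DOP1B and PLCB4, at 0.18 and 0.205. The member nearest to LAMA1 was LAMA5, at 0.216, while no other pair of members lay within 0.43 of each other.

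Other laminin chains were read from a list of 5 genes, of which LAMB2, LAMB3 and LAMB4 matched the table. LAMB2, which encodes beta2, the beta chain known from the neuromuscular junction and the kidney filter, rose from 5.89 ± 0.679 to 17.8 ± 2.25 TPM (SD, n = 3), with a log2 change of 1.44 (limma adjusted p 0.00236). It was at 5.95, 5.19 and 6.54 TPM in the PGC libraries and at 19.6, 15.2 and 18.5 TPM in the somatic libraries. LAMB1 nevertheless held 97.7% ± 0.202 and 94.4% ± 1.07 of the summed beta chain TPM in the 2 groups, without overlap, a share computed after the data were seen. LAMB3, the usual beta partner of alpha3 in skin, was at 0.227, 0.0913 and 0.104 TPM in the PGC libraries and at 0.692, 0.486 and 0.787 TPM in the somatic libraries. LAMB3 and LAMB4 were below the minimum mean of 1 TPM and were not tested.

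The remaining basement membrane genes were read from further lists. Medians of log2 changes are given beside that of all genes tested, -0.11, and for the 7 members the median was 0.77. Counts of calls stand beside the 13.2% of all genes tested that were called higher and the 7.77% called lower. Both type IV collagen chains measured, COL4A1 and COL4A2, which form the collagen network of all basement membranes, were called higher, out of 6 listed. COL4A1 was at 28.6, 14.3 and 20.8 TPM in the PGC libraries and at 221, 61.1 and 44.3 TPM in the somatic libraries. COL4A2 was at 29.2, 12.2 and 18.1 TPM in the former and at 241, 51.2 and 41.6 TPM in the latter. Somatic library 1 was by far the highest for both.

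The log2 changes were 1.99 for COL4A1 and 2.05 for COL4A2 (limma adjusted p 0.0319 and 0.0456). Without somatic library 1 they were 1.303 and 1.26 (adjusted p 0.0313 and 0.0476). Both calls were lost without PGC library 1 (adjusted p 0.0506 and 0.059), PGC library 2 (0.0802 and 0.11), PGC library 3 (0.0811 and 0.109) or somatic library 2 (0.0521 and 0.0592). They were also lost with no minimum level (0.052 and 0.0714), and that of COL4A2 with 5 added to each TPM (0.0537) and without the variance trend (0.0551).

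All 3 measured basement membrane proteoglycans of 4 listed rose. COL18A1, the source of endostatin, rose from 47.9 ± 15.0 to 153 ± 35.5 TPM (log2 change 1.68). AGRN, agrin, which binds laminin and dystroglycan, rose from 43.1 ± 15.2 to 123 ± 14.1 TPM (1.56). HSPG2, perlecan, rose from 30.6 ± 11.2 to 65.6 ± 10.8 TPM (1.13, SD, n = 3 throughout). HSPG2 was at 0.82 without PGC library 2 and 0.93 with array weights, under the minimum change, and its adjusted p rose above the threshold without PGC library 3 (0.0525) or somatic library 1 or 3 (0.0682 and 0.0666).

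Among 24 other listed basement membrane components 16 were tested, with 6 called higher, 0 lower and a median of 0.85. FREM1, among those called, met the minimum for testing only through its somatic values. The shares over all genes tested were 13.2% higher and 7.77% lower. The largest changes were in MATN2, a matrilin adaptor protein, from 13.6 ± 0.441 to 177 ± 44.4 TPM (log2 change 3.58). VWA1 followed, from 2.52 ± 0.521 to 29.8 ± 11.4 TPM (3.06), and NPNT, nephronectin, an integrin ligand, from 27.1 ± 7.12 to 178 ± 44.3 TPM (2.67, SD, n = 3 throughout). Of 6 listed laminin-like netrins 4 were tested and 1 was called higher, NTN4, beside 13.2% of all genes tested. NTN4 binds the laminin gamma1 chain and was at 0.624 ± 0.143 and 4.92 ± 1.02 TPM (SD, n = 3). Like LAMA4 it met the minimum for testing only through its somatic values. The log2 change of NTN4 was 1.86, and 0.81 with 5 added to each TPM, where it was no longer called.

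Receptors for laminin were read from a list of 17 genes, which also held integrin subunits with other main ligands. Of 12 tested, 8 were called higher and 0 lower, beside 13.2% and 7.77% of all genes tested, with a median log2 change of 1.18. ITGAV, an integrin subunit known mainly for vitronectin and fibronectin, rose most, by 3.44, followed by the syndecans SDC4 (2.40) and SDC2 (2.22), heparan sulfate proteoglycans of the cell surface. ITGA6, an alpha subunit that pairs with ITGB1 to bind laminins, was at 139, 77.1 and 142 TPM in the PGC libraries and at 148, 168 and 231 TPM in the somatic libraries. Its log2 change of 0.63 did not pass (limma adjusted p 0.111). Every somatic value lay above every PGC value, as was true of 25.0% of all genes tested. ITGA3, another such subunit, was called higher (log2 change 1.21, limma adjusted p 0.0290). ITGB1 had a log2 change of 0.89 (limma adjusted p 0.00727) and missed the call only because the change was under the minimum. ITGA7, too low to be tested, averaged 1.09 TPM in the PGC libraries and 0.436 TPM in the somatic libraries. These integrin genes, ITGA6 among them, were named after their values were seen. The number called was 5 without PGC library 2, without PGC library 3 or without somatic library 1, in fits that called 10.9%, 11.0% and 11.2% of all genes higher.

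Dystroglycan, DAG1, binds the laminin alpha chains and links them to dystrophin inside the cell. It was at 119, 76.9 and 112 TPM in the PGC libraries and at 282, 239 and 324 TPM in the somatic libraries, and rose by 1.46 on the log2 scale (limma adjusted p 0.0025). It was named after its values were seen, and it is counted both in the receptor list above and in the list that follows. In the list of the dystroglycan complex, with 17 genes of which 14 were tested, 7 were called higher and 1 lower. Over all genes tested 13.2% and 7.77% were so called, and the list median was 1.24. The syntrophin SNTB1 rose by 2.84, the sarcoglycan SGCB by 2.40 and sarcospan, SSPN, by 2.35, while the sarcoglycan SGCZ fell from 10.4 ± 3.94 to 2.52 ± 0.722 TPM (log2 change -1.66, SD, n = 3). SSPN met the minimum for testing only through its somatic values. SNTB1 was at 72.5, 103 and 13.1 TPM in the somatic libraries, and was not called without somatic library 1 or PGC library 3 (adjusted p 0.0562 and 0.0511). Without PGC library 3 the number called higher was 4, in a fit that called 11.0% of all genes higher, and without PGC library 2 the number called lower was 2, in a fit that called 11.3% of all genes lower.

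A further list held the enzymes that build the laminin-binding sugar of dystroglycan. Of 10 tested out of 13 listed, 2 were called higher and 0 lower, beside 13.2% and 7.77% of all genes tested, with a median of 0.27. POMGNT2 was at 4.20 ± 1.23 and 9.86 ± 0.834 TPM (SD, n = 3), with a log2 change of 1.08. It fell under the minimum change, and the call was lost, without PGC library 2 (0.96), with 5 added to each TPM (0.70), with quantile normalization (0.86) and with array weights (0.99).

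Proteases known to cut basement membranes included several of the larger changes. Of 9 tested out of 16 listed, 6 were called higher and 0 lower, beside 13.2% and 7.77% of all genes tested, with a median of 1.87. MMP9, a gelatinase that degrades type IV collagen, was at 14.6, 17.3 and 14.7 TPM in the PGC libraries and at 642, 75.3 and 242 TPM in the somatic libraries. The groups did not overlap, every somatic value being higher, as was true of 25.0% of all genes tested. The log2 change was 3.79 (limma adjusted p 0.00597). MMP2, the other gelatinase, rose by 3.94. PLAU, urokinase, rose from 0.916 ± 0.342 to 11.7 ± 1.12 TPM (SD, n = 3), by 2.74 on the log2 scale. PLAU met the minimum for testing only through its somatic values.

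Of 14 tested integrin signalling adaptors out of 17 listed, 3 were called higher and 0 lower. Among all genes tested 13.2% and 7.77% were so called, and the list median was 0.46. PARVA, alpha-parvin, rose from 5.04 ± 1.55 to 34.1 ± 4.76 TPM (log2 change 2.57), TLN1, talin-1, by 1.41 and VCL, vinculin, by 1.29. VCL was at 0.97 without PGC library 2 and 0.99 with array weights, under the minimum change in both. PTK2 was at 229 ± 66.0 and 114 ± 19.0 TPM (SD, n = 3), with a log2 change of -0.97 (limma adjusted p 0.0190). It missed the call only because the change was under the minimum. ILK (0.75, limma adjusted p 0.00709) and BCAR1 (0.72, 0.0205) missed it likewise in the higher direction. Of the 14 changes 11 were above 0, beside 5790 of 12996 over all genes tested.

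**Figure D5:**
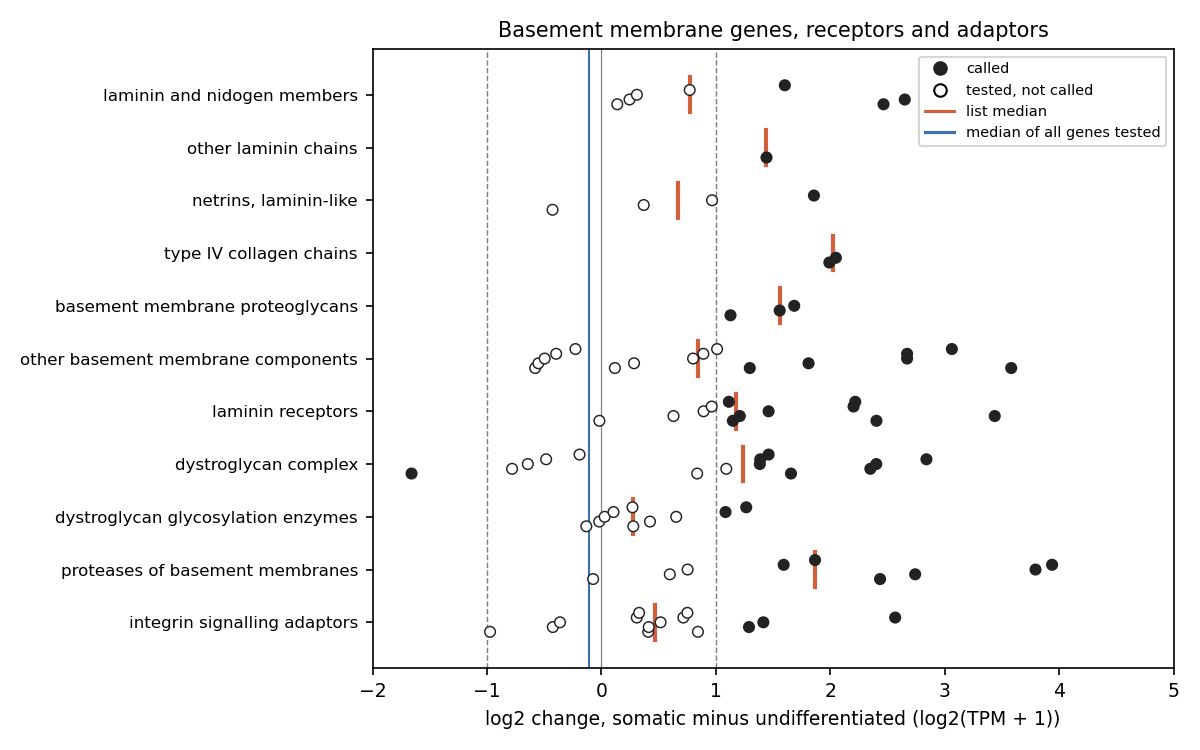
Change on the log2(TPM + 1) scale, somatic differentiated minus undifferentiated, of every tested gene in the member list and in 10 further lists, with filled circles for called genes and open circles for the rest. Orange bars are list medians, the blue line is the median of all genes tested at -0.11, and the dashed lines mark changes of -1 and 1. The 7 members spread from 0.14 to 2.65, and SGCZ in the dystroglycan complex is the single gene called lower.

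Markers of several cell types were read beside the members. For all marker lists the shares over all genes tested were 13.2% called higher and 7.77% lower. Endothelial markers, of which 11 of 12 matched, summed to 20.9 to 37.2 TPM in undifferentiated and 121 to 157 TPM in somatic libraries. Of 8 tested in that list 5 were called higher and 1, KDR, lower, while TEK, TIE1 and VWF stayed under 1 TPM in all 6 libraries. Smooth muscle and pericyte markers, all 9 matched, summed to 52.4 to 67.2 and 484 to 803 TPM, the latter mostly TAGLN and PDGFRB. Of 6 tested 4 were called higher and 0 lower, and MYH11 and RGS5 stayed under 1 TPM in all libraries. LMOD1, among those called, met the minimum for testing only through its somatic values. ACTA2, at 150, 8.55 and 18.2 TPM in the somatic libraries, was not called (limma adjusted p 0.0754), nor was DES (log2 change -0.08). Surface epithelial markers, 8 of 9 matched, summed to 3152 to 3727 and 633 to 1123 TPM, mostly from CLDN1 and EPCAM. Of 6 tested among them 3 were called lower and 0 higher, and KRT5 stayed under 1 TPM in all libraries. Schwann and glial markers, all 7 matched, summed to 87.2 to 91.1 and 118 to 146 TPM, with 0 of 6 tested called by limma. FOXD3 alone was at 38.0 to 60.9 and 47.5 to 125 TPM.

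Endoderm markers, 9 of 11 matched, summed to 30.1 to 37.9 and 60.2 to 196 TPM, the latter mostly APOA1. Of 6 tested 1 was called higher and 3 lower, and HNF4A was under 1 TPM throughout. FOXA1 and CDX2, among those called lower, met the minimum for testing only through their PGC values. Gonadal somatic and mesothelial markers, 7 of 9 matched, summed to 17.4 to 30.5 and 27.7 to 76.7 TPM. Of 3 tested 1 was called higher and 0 lower, and NR5A1, GATA4 and AMH were under 1 TPM throughout. Leukocyte markers, 8 of 10 matched, summed to 14.5 to 15.2 and 15.2 to 22.0 TPM. Of 5 tested 1 was called each way, and SPI1 and ITGB2 were under 1 TPM throughout. RUNX3, the gene called higher, met the minimum for testing only through its somatic values. CSF1R, too low to be tested, was at 0.0870 to 0.137 TPM in the PGC libraries and 1.10 to 2.01 TPM in the somatic ones. Erythroid markers, 7 of 13 matched, summed to 0.67 to 3.48 and 3.47 to 20.1 TPM, with 0 of 1 tested called by limma and HBA1 and HBE1 listed at 0 in all libraries. HBBA, not tested, was at 0 in the PGC libraries and at 1.71, 1.73 and 1.77 TPM in the somatic ones. HBE, the gene tested, was at 0.213 to 1.04 TPM in the PGC libraries and at 18.0, 1.44 and 2.97 TPM in the somatic ones. TAL1 and HBZ, not tested, went the other way in their means. TAL1 was at 2.40, 0.457 and 1.64 TPM in the PGC libraries and at 0.231, 0.218 and 0.689 TPM in the somatic ones. HBZ averaged 0.204 TPM in the former and 0.0439 TPM in the latter. The part of any of these cell types in the levels of LAMA3, LAMA4, LAMC1 or the other members was not tested.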

How the data were processed

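The authors deposited 1 table of TPM values per gene for 6 chicken RNA libraries, scaled to the same total in each library. Per the submitters' processing notes, the tools were FastQC 0.11.9, Trimmomatic 0.39, Trim Galore 0.6.6, cutadapt 3.1, STAR 2.7.3a and RSEM 1.3.1, with the build GRCg6a. The annotation release is not given in the sources used here. TPM is relative, so a change in abundant genes moves all others, and it holds no depth, so no counting error could be computed. All 6 value columns matched the sample descriptions, and groups and replicate numbers came from the sample titles.

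The groups were compared on log2(TPM + 1) with limma (version 3.58.1, R 4.3.3), with a variance trend and no covariates. Of all genes 12996 averaged 1 TPM or more over the libraries and were tested, and p-values were adjusted over all of them. The called genes LAMA4, NTN4, SSPN, PLAU, KCNMB1, FREM1, LMOD1 and RUNX3 averaged under 1 TPM in the PGC libraries. They met this minimum only through the somatic ones. FOXA1 and CDX2, called lower, averaged under 1 TPM in the somatic libraries and met it only through the PGC ones. Ratios and shares were compared with exact permutation tests in Python 3.11.15. The code was tested on simulated data. The members and lists were chosen with earlier results of these data known. All members were named, with up to 3 called genes each way per list, by size of change, and the 2 nearest profiles per member. Some further genes were given as overlapping genes or markers, or were named after their values were seen. Among the latter were DAG1, ITGA3, ITGA6, ITGA7, ITGB1, FREM1, LAMB3, PTK2, ILK and BCAR1. Symbols were matched without regard to case, then by RefSeq synonyms. A planned ratio of NID1 to NID2 was not made, and the planned nidogen sum and alpha chain shares used NID1 and the 4 measured chains. Protein and promoter sequences were not used here, and some genes of the lists are not reported by name.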

Additional observations from a re-analysis of the deposited data

How the results depend on the processing

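The 3 calls of LAMA3, LAMA4 and LAMC1 held under every alternative in which those genes were tested (LAMA4 fell under a minimum mean of 5 TPM), and 0 members were called lower under any. The number of genes called was 2731, against 1719 with 5 added to each TPM and 5185 by adjusted p alone; the wider rule and the larger pseudocount change the count by construction. All other alternatives kept it within 1.5 times. Changes that did not pass turned sign in some settings, and the cause was not tested. With array weights LAMA1 was at -0.10, LAMA5 -0.19, CLEC16A -0.15, VPS13C -0.10, ATP2B4 -0.24 and NRIP1 -0.11. Without PGC library 2 they were at -0.15, -0.18, -0.18, -0.17, -0.21 and -0.082, the lowest with 1 library left out, and the highest were 0.45, 0.63, 0.43, 0.45, 0.57 and 0.66. LAMB1 was at -0.0068 and ANKRD40 at -0.045 without somatic library 1 (highest 0.27 for LAMB1 and 0.19 for ANKRD40), and ANKRD40 at -0.12 under quantile normalization. Same-numbered libraries deviated from their group means with correlations of 0.192, 0.0131 and 0.14, and unlike-numbered ones with correlations of -0.256 to 0.112. The sample titles give only a number, so the main fit used no pairing, and whether the libraries were paired is unknown. With the replicate number as a block 2786 genes and the same count of 3 members were called, and not every library correlated best with its own number. Ratios and shares kept their direction with any library left out, with 1 added to each TPM and within replicate numbers, where the smallest p that 3 pairs allow is 0.25. Depth is unknown, so no detection limit can be set for LAMA4 or LAMB3.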
